A study of Mus musculus with 11 samples.

Results

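The genes described here encode 7 plasma proteins that hepatocytes secrete: the orosomucoids Orm1, Orm2 and Orm3, haptoglobin (Hp), hemopexin (Hpx), lipocalin 2 (Lcn2) and the lipopolysaccharide binding protein (Lbp). They are 7 of the 19938 genes that could be measured with a probe set of their own. Each was taken by its symbol and none by a cut on its values, but the 7 were listed with earlier results of these data known. Every one of the 7 symbols had exactly 1 probe set annotated to it alone, so none had to be picked among several. Liver RNA was read on Affymetrix arrays from male mice aged 14 months in 3 groups. The wild-type group held 3 arrays and its strain label is C57BL/6. The Mdr2-KO group held 4 arrays of tumour-free liver from mice labelled as Mdr2 knockouts. The Mdr2-KO/IL6-KO group held 4 arrays of tumour-free liver from Mdr2 knockouts that also lack interleukin 6. The labels of the knockout arrays give neither a strain nor the alleles, and no label names an agent given to the mice. The values are log2 levels from RMA, a method that corrects, normalizes and summarizes the probes of each probe set, so a difference of 1 is a doubling. They are whole-liver values, in which fewer cells of a type and less RNA per cell cannot be told apart.

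These proteins belong to the acute-phase response, the change in liver secretion that follows infection or injury. Interleukin 6 acts on hepatocytes through its receptor and gp130 to activate STAT3, and with interleukin 1 and C/EBP factors it raises transcription of many such genes. Mdr2, encoded by Abcb4, is the canalicular transporter that moves phospholipid into bile, and its loss is known for bile duct injury and fibrosis. The orosomucoids and Lcn2 share the lipocalin fold, a cup that holds small hydrophobic ligands. Orosomucoids carry drugs and lipids in plasma, and Lcn2 binds bacterial siderophores and so keeps iron from microbes. Haptoglobin binds free haemoglobin and hemopexin binds free haem, and both complexes are cleared by cell-surface receptors. Lbp hands lipopolysaccharide to CD14 and the TLR4 receptor complex.

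Upstream sequence was at hand for 4 of the 7 genes, Orm2, Orm3, Hpx and Lcn2, from RefSeq on GRCm38.p6. The 150 bases before the start site that the promoter table gives are shown because Orm2 and Orm3 are neighbouring copies whose levels had unequal differences between groups, untested between the copies, and because Lcn2 passed the test against wild type and Hpx had the smallest difference. In the RefSeq gene order Orm3 is followed directly by Orm2, and 1 predicted gene stands between Orm1 and Orm3. The windows lie at chr4:63362299-63362448 on the plus strand for Orm2, chr4:63356008-63356157 on the plus strand for Orm3, chr2:32387740-32387889 on the minus strand for Lcn2 and chr7:105600117-105600266 on the minus strand for Hpx. The Orm3 start used there is not the first base of the annotated gene: 89 of the 150 bases of its window lie inside the gene, against 0 for the other windows. Each reads 5′ to 3′ toward the start, and capitals mark letters that matched a searched motif.
Orm2: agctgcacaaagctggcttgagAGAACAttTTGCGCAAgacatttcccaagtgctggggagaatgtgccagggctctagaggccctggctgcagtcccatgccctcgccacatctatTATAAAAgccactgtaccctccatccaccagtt
Orm3: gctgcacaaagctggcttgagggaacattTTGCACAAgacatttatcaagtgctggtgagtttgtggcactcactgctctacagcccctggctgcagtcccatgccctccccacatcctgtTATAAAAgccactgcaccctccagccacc
Lcn2: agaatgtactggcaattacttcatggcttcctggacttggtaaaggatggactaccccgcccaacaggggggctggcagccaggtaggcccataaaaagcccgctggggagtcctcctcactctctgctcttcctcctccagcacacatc
Hpx: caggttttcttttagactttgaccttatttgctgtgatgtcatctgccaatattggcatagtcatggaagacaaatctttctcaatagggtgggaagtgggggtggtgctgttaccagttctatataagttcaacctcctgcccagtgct

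Over 250 upstream bases Orm2 and Orm3 were 85.5% identical in a global alignment, whereas the other 5 pairs among these 4 genes lay between 47.8% and 51.3%. Of 6 motifs searched on both strands, the C/EBP letters TTGCNNAA matched in both orosomucoid windows, as TTGCGCAA 120 to 113 bases before the start in Orm2 and as TTGCACAA 121 to 114 bases before it in Orm3. The Orm2 match reads the same on both strands. The glucocorticoid receptor half-site AGAACA matched in Orm2 only, 128 to 123 bases upstream, and overlaps no other match. The TATA box letters TATAAAA matched in Orm2 and Orm3. The STAT palindrome TTCNNNGAA, the interleukin 6 response element core CTGGGAA and the NF-kB letters (GGG, any 2 bases, TTTCC) matched in none of the 4 windows. Lcn2 and Hpx held none of the 6 as the exact letters searched. Variants of the letters were not searched. The Hpx window holds tatataa near the start site, which the letters TATAAAA do not match. Among 32851 upstream windows of the same length, 5.46% held the C/EBP letters, 9.62% the half-site, 2.96% the TATA letters, 4.09% the STAT palindrome, 5.5% the response element core and 0.925% the NF-kB letters. A match is a run of letters and not evidence of binding.

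As a check of the labels, Abcb4 averaged 9.83 on wild-type arrays, against 7.74 for Mdr2-KO and 8.09 for Mdr2-KO/IL6-KO, and both differences passed. The Il6 probe set lay between 1.62 and 2.09 on all 11 arrays, near the lowest levels measured, and gives no check of the interleukin 6 knockout. Alb, the albumin gene and a defining hepatocyte marker, averaged 13.36, 13.32 and 13.28 in the same order. Any pair of arrays correlated at 0.976 to 0.990 over probe sets. Array medians lay between 5.09 and 5.23, the lowest in Mdr2-KO replicate 3 and the highest in Mdr2-KO replicate 2. Replicate numbers only name arrays and pair nothing. Nothing says outright that each array is a separate mouse, so the p-values may reflect a spread that is partly technical.

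Of the 7 genes, 2 were lower in Mdr2-KO/IL6-KO than in wild-type liver at an adjusted p under 0.05 over all genes: Lcn2 and Lbp. Over all genes 4.19% were called in this comparison, 1.28% lower and 2.91% higher. None of the 7 was called between Mdr2-KO and wild type, where 1.26% of all genes were (0.316% lower, 0.948% higher), or between the knockout groups, where 0.00502% were. At an unadjusted p under 0.05 the counts were 5 of 7, 1 of 7 and 2 of 7 in that order, all lower, against 15.5%, 9.79% and 4.82% of all genes, or 6.1%, 4.09% and 2.04% counting only lower ones. Differences were below 0 for 7, 6 and 7 of the 7 genes in that order, against 50.2%, 51.7% and 46.1% of all genes. Mean levels ran from wild type to Mdr2-KO to Mdr2-KO/IL6-KO in descending order in 6 of the 7, the exception being Orm3, whose mean was highest in Mdr2-KO. The median log2 difference of the 7 genes was -0.17 for Mdr2-KO minus wild type, -0.31 for Mdr2-KO/IL6-KO minus Mdr2-KO and -0.41 for Mdr2-KO/IL6-KO minus wild type. The medians over all genes were -0.01, 0.01 and -0.0006. The comparisons share arrays and are not independent of one another. The smallest adjusted p of a test for any difference among the 3 groups was that of Lcn2, 0.0503, and 2.51% of all genes passed that test.

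**Figure D1:**
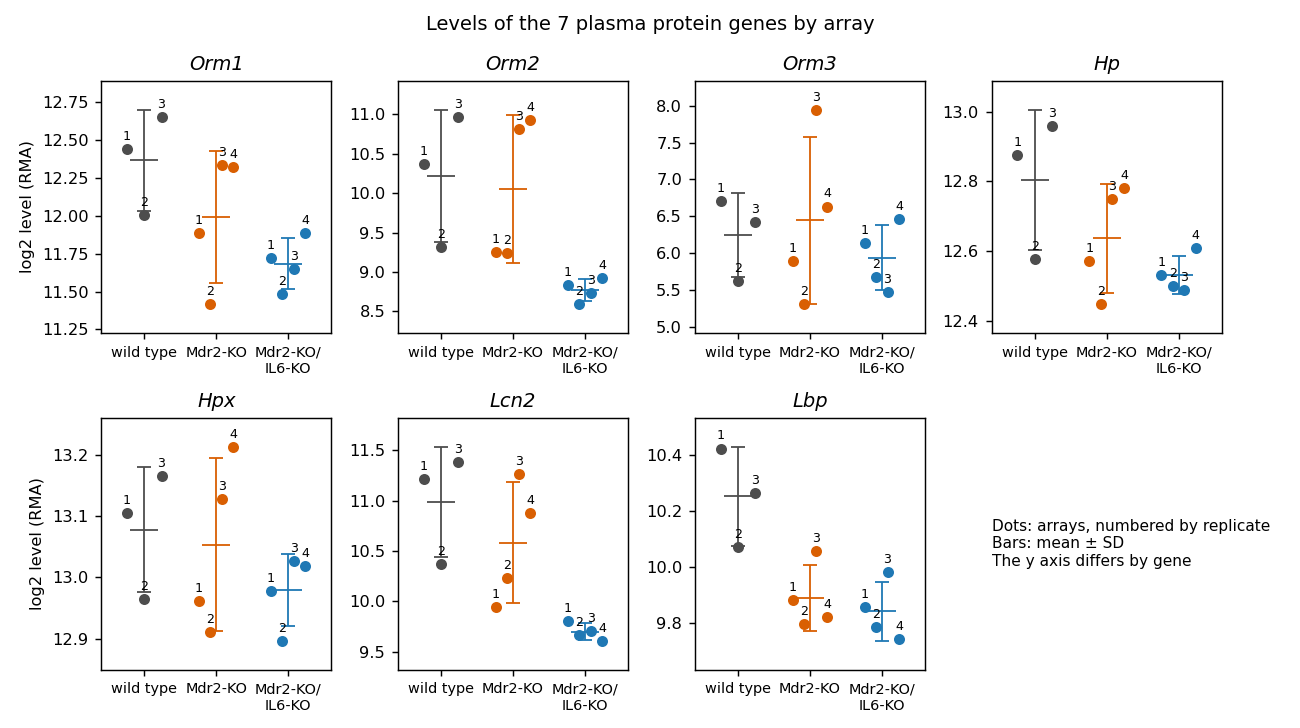
Log2 level (RMA, y axis, a separate range for each gene) of the 7 genes on each of the 11 arrays, by group (x axis); dots are arrays numbered by replicate and bars are mean ± SD (n = 3, 4 and 4). For Orm2 and Lcn2 all 4 Mdr2-KO/IL6-KO arrays lie below every other array, by a narrow margin for Lcn2. The Mdr2-KO arrays form a low and a high pair for Orm2 and are graded from low to high for Lcn2.

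Lcn2 is the siderophore binder. Wild-type arrays had log2 levels of 11.22, 10.37 and 11.38. Mdr2-KO arrays had 9.94, 10.24, 11.27 and 10.88, while those of Mdr2-KO/IL6-KO had 9.81, 9.67, 9.70 and 9.61. The Mdr2-KO/IL6-KO arrays formed a tight low group below every array of the other groups, whereas wild type and Mdr2-KO overlapped. The margin was narrow, since Mdr2-KO replicate 1 (9.94) was only just above Mdr2-KO/IL6-KO replicate 1 (9.81). The means were 10.99 ± 0.55 (SD, n = 3), 10.58 ± 0.60 (SD, n = 4) and 9.70 ± 0.083 (SD, n = 4). Lcn2 fell 2.45-fold in Mdr2-KO/IL6-KO against wild type (log2 difference -1.29 ± 0.28 SE, 95% interval -1.90 to -0.68, adjusted p = 0.0197). Against Mdr2-KO the log2 difference was -0.88 ± 0.26 SE with an interval of -1.45 to -0.32, and it did not pass over all genes (adjusted p = 0.806). Between Mdr2-KO and wild type it was -0.41 with an interval of -1.02 to 0.20 (adjusted p = 0.745). The call against wild type was lost without wild-type replicate 1 (adjusted p = 0.0925), wild-type replicate 3 (0.0999), or either of Mdr2-KO/IL6-KO replicates 2 (0.0524) and 3 (0.0508). It was also lost in an unmoderated model (0.119) and with the array median as a covariate (0.0521).

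Lbp, which presents lipopolysaccharide, had a similar lower level in both knockout groups. Wild-type arrays had log2 levels of 10.42, 10.07 and 10.26. Mdr2-KO arrays had 9.88, 9.80, 10.06 and 9.82, while those of Mdr2-KO/IL6-KO had 9.86, 9.78, 9.98 and 9.74. All 3 wild-type arrays lay above all 8 knockout arrays, though wild-type replicate 2 was only just above Mdr2-KO replicate 3, and the knockout groups overlapped throughout. Lbp fell 1.33-fold in Mdr2-KO/IL6-KO against wild type (log2 difference -0.41 ± 0.10 SE, interval -0.64 to -0.19, adjusted p = 0.0430). In Mdr2-KO against wild type its log2 difference was -0.36 ± 0.10 SE with an interval of -0.59 to -0.14, and it did not pass (adjusted p = 0.146). Between the knockout groups the difference was -0.05 with an interval of -0.26 to 0.16. The call was lost without wild-type replicate 1 (adjusted p = 0.196) or 3 (0.134), Mdr2-KO replicate 1 (0.0584) or 4 (0.0583), or any of Mdr2-KO/IL6-KO replicates 1 (0.0907), 2 (0.109) or 4 (0.102). It also missed the threshold after quantile normalization (0.0534), with the array median as a covariate (0.0793), in the unmoderated model (0.0864) and with only the 2 groups fitted (0.0511).

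Orm2 had the largest differences of the 7 genes between Mdr2-KO/IL6-KO and either other group, but also wide spreads. Wild-type arrays had log2 levels of 10.37, 9.32 and 10.97. Mdr2-KO arrays had 9.25, 9.24, 10.82 and 10.92, while those of Mdr2-KO/IL6-KO had 8.83, 8.59, 8.73 and 8.92. The Mdr2-KO arrays formed a low pair just under the lowest wild-type array and a high pair within the wild-type range, and every Mdr2-KO/IL6-KO array was below all the others. The log2 difference was -1.45 ± 0.43 SE for Mdr2-KO/IL6-KO minus wild type (2.73-fold, interval -2.38 to -0.52, adjusted p = 0.0857) and -1.29 ± 0.40 SE for Mdr2-KO/IL6-KO minus Mdr2-KO (2.45-fold, interval -2.15 to -0.43, adjusted p = 0.879). Neither passed the threshold over all genes. Without wild-type replicate 2 the difference from wild type was -1.90 and passed (adjusted p = 0.0375), as it did with array weights (0.0222) and with only the 2 groups fitted (0.0222). For Mdr2-KO minus wild type it was -0.16 with an interval of -1.09 to 0.77.

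Orm1 had the same descending order of means as Orm2. Wild-type arrays had log2 levels of 12.44, 12.00 and 12.65. Mdr2-KO arrays had 11.88, 11.42, 12.34 and 12.32, while those of Mdr2-KO/IL6-KO had 11.72, 11.48, 11.65 and 11.89. Wild type and Mdr2-KO/IL6-KO did not overlap, and Mdr2-KO spanned the gap between them. The log2 difference was -0.68 ± 0.21 SE for Mdr2-KO/IL6-KO minus wild type (interval -1.13 to -0.23, adjusted p = 0.0961), -0.31 for Mdr2-KO/IL6-KO minus Mdr2-KO (interval -0.72 to 0.11) and -0.38 for Mdr2-KO minus wild type (interval -0.82 to 0.07). The first passed without Mdr2-KO replicate 2 (adjusted p = 0.0276), an array that enters it only through the shared estimate of spread. It also passed with array weights (0.0153), with only the 2 groups fitted (0.0305) and without Mdr2-KO replicates 2 and 3 (0.0321).

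Orm3 is the neighbour of Orm2. Wild-type arrays had log2 levels of 6.71, 5.62 and 6.42. Mdr2-KO arrays had 5.89, 5.31, 7.94 and 6.63, while those of Mdr2-KO/IL6-KO had 6.14, 5.68, 5.48 and 6.46. All 3 groups overlapped, and Mdr2-KO replicate 3 stood highest. Its log2 differences were 0.20 for Mdr2-KO minus wild type, -0.51 for Mdr2-KO/IL6-KO minus Mdr2-KO and -0.31 for Mdr2-KO/IL6-KO minus wild type. The intervals reached from -0.83 to 1.23, from -1.46 to 0.45 and from -1.34 to 0.72, so each holds differences of more than 2-fold. The intervals of Orm2 and Orm3 overlap in every comparison, and the difference between these 2 genes was not tested. The 3 orosomucoid genes are close copies, and how far 1 probe set reads RNA of another was not tested.

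Haptoglobin and hemopexin, which clear haemoglobin and haem, had the smallest differences of the 7 between Mdr2-KO/IL6-KO and wild type. Hp ranged over 12.58 to 12.96 on wild-type arrays, 12.45 to 12.78 for Mdr2-KO and 12.49 to 12.61 for Mdr2-KO/IL6-KO, with means of 12.80, 12.64 and 12.53. Its largest log2 difference was -0.27 ± 0.11 SE for Mdr2-KO/IL6-KO minus wild type (interval -0.51 to -0.04, adjusted p = 0.235), where 1 wild-type array lay among the knockout values. Hpx ranged from 12.96 to 13.17, 12.91 to 13.21 and 12.90 to 13.03 in the same order, with all groups overlapping. Its differences lay between -0.10 and -0.02, and the 3 intervals together ran from -0.30 to 0.18, so a difference in array level beyond 1.5-fold is outside them for Hpx. For Hp the 3 intervals ran from -0.51 to 0.11. Both genes are among the brightest measured, Hp at percentile 99.92 of gene level and Hpx at 99.97. How far the arrays narrow differences at such levels was not tested.

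**Figure D2:**
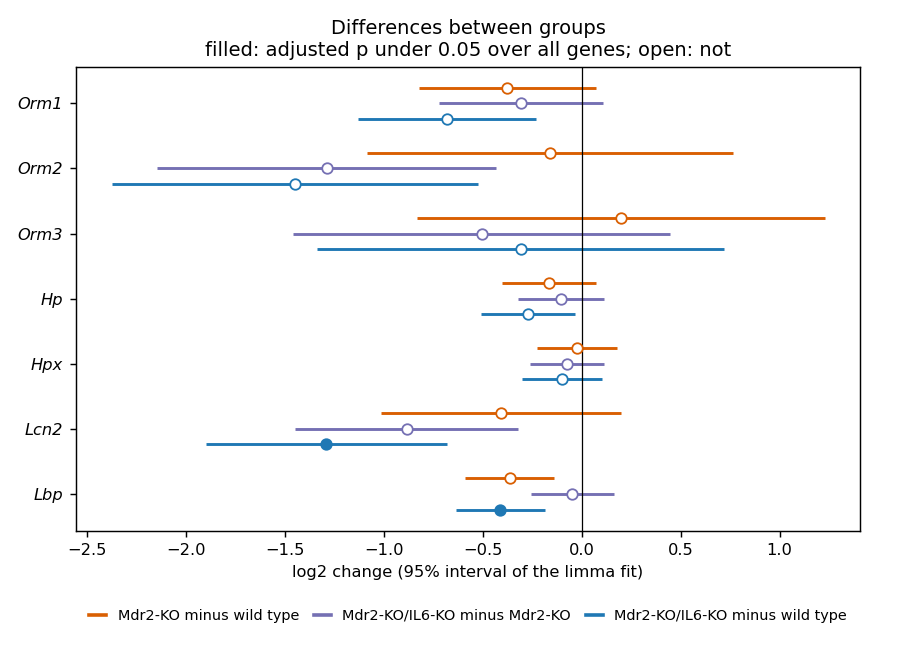
Log2 change (x axis) of each of the 7 genes (y axis) in the 3 comparisons, with the 95% interval of the limma fit as a line; filled points passed an adjusted p under 0.05 over all genes and open points did not. Only Lcn2 and Lbp are filled, both for Mdr2-KO/IL6-KO minus wild type at -1.29 and -0.41.

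Non-overlap of arrays gave the same order of comparisons. In Mdr2-KO/IL6-KO against wild type the arrays of 4 of the 7 genes did not overlap, Orm1, Orm2, Lcn2 and Lbp, each lower in the knockouts; 6.44% of all genes did so downward and 16.3% in either direction. Between the knockout groups Orm2 and Lcn2 did not overlap, 2 of 7, against 0.908% of all genes downward and 2.51% in either direction. Between Mdr2-KO and wild type it was Lbp alone, against 3.64% downward and 9.13% in either direction.

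The spread within groups also differed. For all 7 genes the range over the Mdr2-KO/IL6-KO arrays was the narrowest of the 3 groups, which held for 28.1% of all genes. For 6 of the 7, all but Lbp, the SD in Mdr2-KO was at least 2 times that in Mdr2-KO/IL6-KO, against 23.8% of all genes. For Lcn2 the SD was 0.55 for wild type, 0.60 for Mdr2-KO and 0.083 for Mdr2-KO/IL6-KO, a ratio of 7.26 between the knockout groups. For Orm2 the values were 0.84, 0.94 and 0.14, a ratio of 6.77. The ratio was 2.84 for Hp, 2.61 for Orm1, 2.54 for Orm3, 2.38 for Hpx and 1.12 for Lbp, beside a median of 1.22 over all genes. The difference in spread was not tested. The limma fit used a shared estimate of spread for each gene over the 3 groups, so its intervals and p-values assume equal spread. For Lcn2 and Orm2 the SDs above lie far apart.

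**Figure D3:**
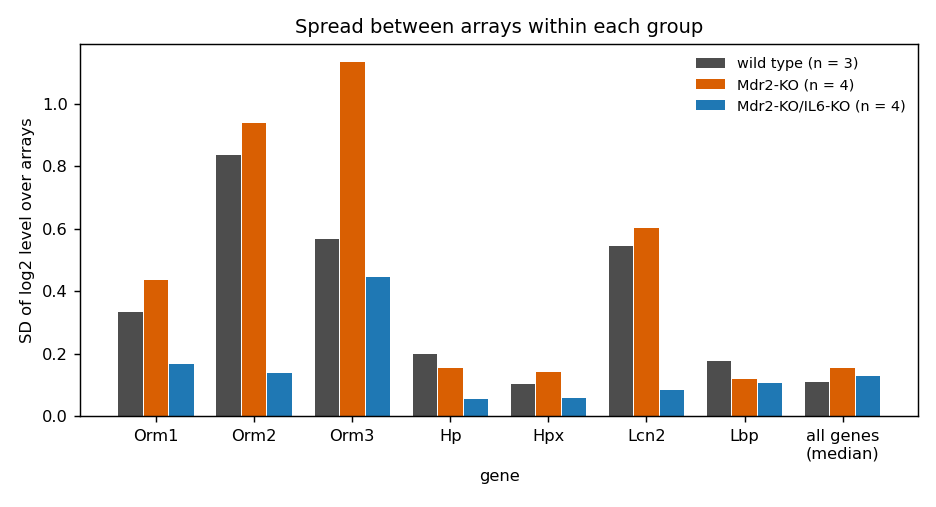
SD of the log2 level over arrays (y axis, from 0) for each of the 7 genes and the median SD over all 19938 genes (x axis), by group. The Mdr2-KO/IL6-KO bar is the shortest of the 3 for each of the 7 genes, while over all genes the medians are 0.11, 0.16 and 0.13 in wild type, Mdr2-KO and Mdr2-KO/IL6-KO.

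Individual arrays carried this spread in common. Wild-type replicate 2 was the lowest wild-type array for all 7 genes, which was so for 29.1% of all genes. Mdr2-KO replicates 3 and 4 were both above replicates 1 and 2 for 6 of the 7, the exception being Lbp. This held for 16.2% of all genes and 24.5% of genes brighter than the median gene, where all 7 lie. For the same 6 genes Mdr2-KO replicates 3 and 4 were also both above every Mdr2-KO/IL6-KO array. That held for 5.71% of all genes and 8.13% of the brighter ones. The 6 genes share arrays and are not 6 separate observations. Beside this, Mdr2-KO replicates 3 and 4 had the 2 lowest array medians of their group, 5.09 and 5.15 against 5.18 and 5.23. Their means over 20 Kupffer cell and macrophage markers were 7.38 and 7.31 against at most 7.08 on replicates 1 and 2, and over 19 hepatocyte markers 12.09 and 12.02 against 11.87 and 11.97. The same held for the lymphocyte, bile duct and endothelial lists, 5 of 9 marker lists in all, and the erythroid list was lower on both. Lymphocyte means were 4.71 and 4.52 against 4.37 and 4.39, bile duct means 6.26 and 6.29 against 6.16 and 6.10, and endothelial means 7.41 and 7.48 against 7.31 and 7.34. The SD over probe sets was 2.24 and 2.22 on Mdr2-KO replicates 3 and 4 against 2.20 and 2.17 on replicates 1 and 2. Within every group this SD put the arrays in the same order as the mean level of the 7 genes. The part of these array and marker differences in the result was not tested. With Mdr2-KO replicates 2 and 3 left out together, 3 of the 7 genes passed against wild type in Mdr2-KO/IL6-KO, the third being Orm1, and none between the knockout groups.

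Across the 11 arrays the genes other than Lbp varied together. Pearson r between their 15 pairs lay from 0.65 to 0.97, and from 0.69 to 0.95 after each group's mean was subtracted, so the association is present within groups. The 6 pairs with Lbp lay from 0.33 to 0.73, and from 0.44 to 0.62 within groups. The highest pair was Orm1 with Hp at 0.97, and Orm2 with Lcn2 reached 0.95. These values describe 11 arrays that share groups and normalization.

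With the 7 genes themselves left out, likeness was searched among named genes brighter than the median gene, without predicted loci. Those most like Orm2 over the 11 arrays were Ambp (r = 0.97), Rbks (0.91) and Itih3 (0.91), and those most like Lcn2 were Ambp (0.94), Itih3 (0.93) and Apcs (0.93). Ambp encodes the precursor of alpha-1-microglobulin and bikunin, Itih3 a heavy chain of inter-alpha-trypsin inhibitor, and Apcs serum amyloid P. Outside the 7, Orm1 was most like Lsm6 (0.98), Cd302 (0.96) and Ifi35 (0.95). Hp was most like Cmc1 (0.97), Psma3 (0.97) and Rpl23 (0.96), and Hpx most like Rps3a1 (0.96), Tapbp (0.94) and Timm23 (0.92). Orm3 was most like Erh (0.94), Immp1l (0.94) and Pfdn5 (0.93). Lbp was most like Lpgat1 (0.97), Ccl5 (0.96) and Litaf (0.94). Only Orm2 and Lcn2 shared any of their nearest genes. Each value is over 11 arrays and was picked as one of the highest 3 in that search. Within the 7, Orm1 with Hp and Orm2 with Lcn2 were as close as several of these. After each group's mean was subtracted, r was 0.98 for Orm1 with Lsm6, 0.96 for Hpx with Rps3a1 and 0.95 for Hp with Rpl23. Values as high as those among the 7 were therefore not confined to them, and the usual r between bright genes was not computed.

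Of 26 other acute-phase genes measured, 18 fell in Mdr2-KO/IL6-KO against wild type and none rose, with a median log2 difference of -0.95 beside -0.0006 over all genes. The lists share genes: the 26 include Stat3, counted again under interleukin 6 signalling, and Fgb, counted again as a hepatocyte marker. Against wild type 5 fell in Mdr2-KO (median -0.44), and between the knockout groups 1 fell, Fgl1 (median -0.47). The shares of all genes called lower were 1.28%, 0.316% and 0.00502% in that order. Fgl1, a fibrinogen-like hepatokine, fell by 3.23 on the log2 scale in Mdr2-KO/IL6-KO against wild type (adjusted p = 1.68e-06) and fell by 1.94 against Mdr2-KO (0.00106), the single call over all genes between the knockout groups. Against wild type Itih4, an inter-alpha-trypsin heavy chain, fell by 1.04 (2.04e-05), the protease inhibitor gene Serpina3n fell by 1.31 (0.000227) and the complement gene C4b fell by 0.74 (0.000466). The metallothionein genes Mt1 and Mt2, whose products bind zinc, fell by 3.09 and 3.82 (0.000456 and 0.000671). Saa1, a serum amyloid, is named here after its values were seen. Wild-type arrays had log2 levels of 10.58, 9.29 and 11.08. Mdr2-KO arrays had 8.41, 7.53, 9.46 and 9.40, while those of Mdr2-KO/IL6-KO had 7.50, 7.08, 6.99 and 7.62. Saa1 fell by 3.02 in Mdr2-KO/IL6-KO against wild type (adjusted p = 0.00192). It too had wild-type replicate 2 lowest and Mdr2-KO replicates 3 and 4 above 1 and 2, but unlike Orm2 and Lcn2 its Mdr2-KO arrays with high values only just reached the wild-type range. Wild-type replicate 2 was the lowest wild-type array in 21 of the 26 genes, and Mdr2-KO replicates 3 and 4 were above 1 and 2 in 11.

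**Figure D4:**
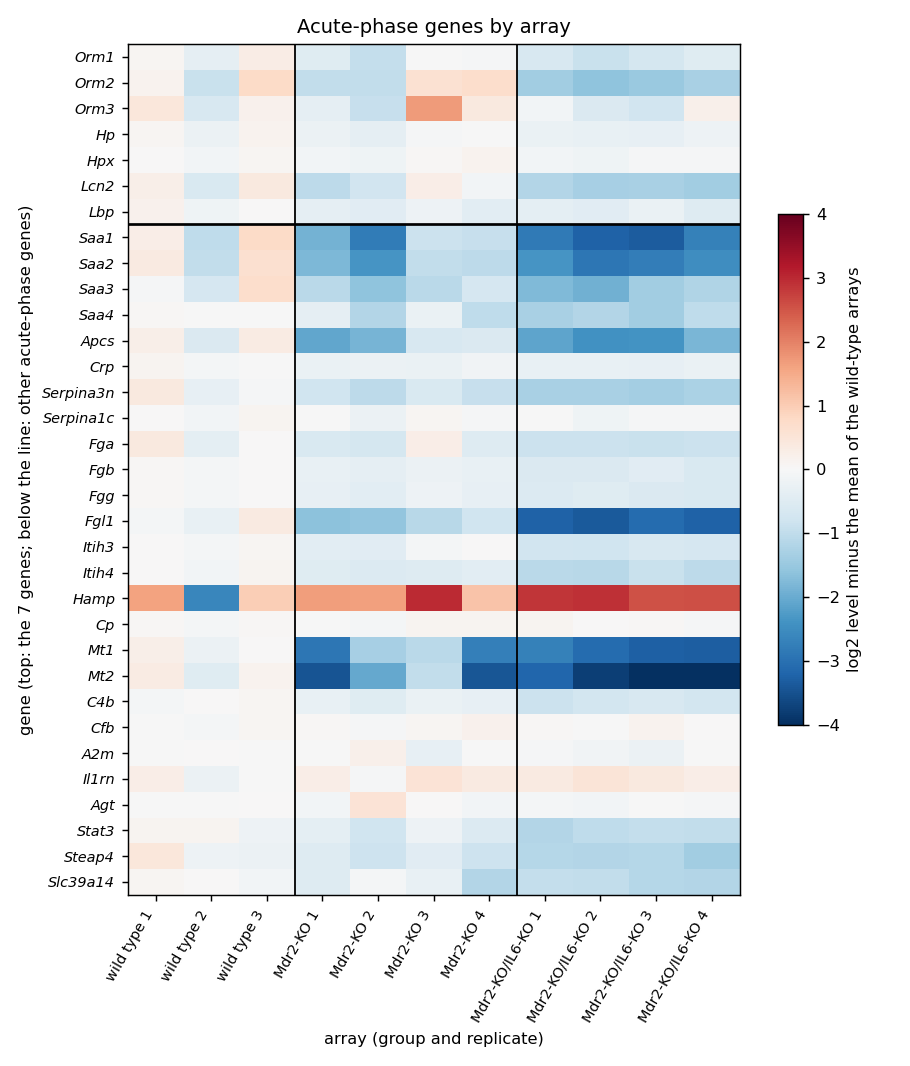
Log2 level minus the mean of the wild-type arrays (colour, limited to -4 to 4) for the 7 genes above the line and 26 other acute-phase genes below it (y axis) on each array (x axis, group and replicate). The serum amyloids, Apcs and Fgl1 lie below the wild-type mean in all Mdr2-KO arrays and have their lowest group mean for Mdr2-KO/IL6-KO. Of the 7 genes, all but Lbp are near or above the wild-type mean in Mdr2-KO replicates 3 and 4.

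Of 30 measured genes of interleukin 6 family signalling, 3 fell and 2 rose in Mdr2-KO/IL6-KO against wild type, with a median log2 difference of 0.01. Stat3, the transcription factor activated by gp130, fell by 1.03 (adjusted p = 0.000738), the kinase gene Pim1 fell by 0.64 (0.0151) and the receptor gene Lifr fell by 0.64 (0.0358). Stat5b rose by 0.39 (0.0268) and the receptor gene Il22ra1 rose by 0.78 (0.0307). The receptor genes Il6ra and Il6st had differences of -0.30 and -0.15 and did not pass. In Mdr2-KO against wild type and between the knockout groups none of the 30 passed. At an unadjusted p under 0.05, limma gave 4 and 5. For this list and those below, 1.28% of all genes were called lower and 2.91% higher in Mdr2-KO/IL6-KO against wild type. In Mdr2-KO against wild type these shares were 0.316% and 0.948%. At an unadjusted p under 0.05 in limma, the share of all genes was 15.5% for Mdr2-KO/IL6-KO against wild type. It was 9.79% for Mdr2-KO against wild type and 4.82% between the knockout groups.

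Of 23 measured transcription factors and upstream cytokine genes of the response, 4 fell and 1 rose in Mdr2-KO/IL6-KO against wild type (median -0.09), and none passed in the other comparisons, where 4 and 5 had an unadjusted p under 0.05. The 4 were the hepatocyte factor gene Foxa3 (-0.63, adjusted p = 0.00583), the bile acid receptor gene Nr1h4 (-0.45, 0.0189), Tnfrsf1a (-0.47, 0.0225) and the interleukin 1 co-receptor gene Il1rap (-0.42, 0.0334). Nfkb2 rose by 0.38 (0.0415). Cebpb and Cebpd, whose products bind C/EBP sites, each had a difference of -0.06 and did not pass.

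Of 20 receptor, clearance and iron genes, 2 rose in Mdr2-KO/IL6-KO against wild type (median -0.04) and none passed in the other comparisons, where 5 and 2 had an unadjusted p under 0.05. Ftl1, the ferritin light chain, rose by 0.33 (adjusted p = 0.0294) and Asgr2, a subunit of the asialoglycoprotein receptor, rose by 0.37 (0.0465). Cd163, the haptoglobin-haemoglobin receptor, averaged 5.48, 4.87 and 4.31 in wild type, Mdr2-KO and Mdr2-KO/IL6-KO, and did not pass (adjusted p = 0.381 for the last against wild type). The wild-type mean rests on replicate 2, which read 7.55 against 4.63 and 4.25 on replicates 1 and 3. Without it the difference from wild type was -0.13 for Mdr2-KO/IL6-KO, in place of -1.17, and 0.43 for Mdr2-KO, in place of -0.61. Lrp1, the receptor for haem-hemopexin, had a difference of -0.20 between Mdr2-KO/IL6-KO and wild type (0.474), the haem oxygenase gene Hmox1 -0.37 (0.479), or -0.10 without wild-type replicate 1, and Slc22a17, a receptor proposed for Lcn2, -0.06 (0.853). Of 17 genes of lipopolysaccharide recognition, 2 fell in Mdr2-KO/IL6-KO (median -0.13) and 1 in Mdr2-KO against wild type, and none between the knockout groups, where 2 had an unadjusted p under 0.05. Pltp, a lipid transfer protein related to Lbp, fell by 1.15 in Mdr2-KO (adjusted p = 0.00556) and fell by 1.24 in Mdr2-KO/IL6-KO (0.00139), and Myd88, the TLR adaptor, fell by 0.40 in the latter (0.0152). The mean of Pltp was 8.22 and 8.13 in the knockout groups against 9.37 in wild type. Cd14, the co-receptor that takes lipopolysaccharide from Lbp, had a difference of 0.74 in Mdr2-KO against wild type and did not pass (adjusted p = 0.233).

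Lcn2 is also a granule gene of neutrophils, so markers of other cells are given beside it. Of 15 measured neutrophil markers, 1, Prtn3, fell against wild type in both knockout groups, and none passed between the knockout groups. The mean log2 level of that list ran over 4.37 to 4.56 on wild-type arrays, 4.23 to 4.44 for Mdr2-KO and 4.11 to 4.30 for Mdr2-KO/IL6-KO. Averaged over all arrays, all 15 lay below the median gene level of 5.57. In Mdr2-KO/IL6-KO against wild type 13 of the 15 were below 0 and 5 had an unadjusted p under 0.05, all lower, with a list median of -0.20. The granule genes Ltf, Ngp and Camp lay between 3.26 and 4.94 in every group mean. S100a9, a calprotectin subunit abundant in neutrophils, had log2 levels of 5.98, 5.11 and 5.88 on wild-type arrays. It had 5.63, 5.08, 5.83 and 5.79 for Mdr2-KO and 5.02, 4.88, 5.13 and 5.42 for Mdr2-KO/IL6-KO. As for Lcn2, wild-type replicate 2 was the lowest of its group and Mdr2-KO replicates 3 and 4 the highest of theirs, and the same held for its partner S100a8. Other listed genes went the other way. For Ngp, Camp, Ltf and Elane, wild-type replicate 2 was the highest of its group and Mdr2-KO replicate 3 the lowest of its group. Among the Mdr2-KO arrays the list mean was also lowest on replicate 3, at 4.23. The S100a9 difference was -0.55 from wild type and -0.47 from Mdr2-KO, with unadjusted p = 0.0252 and 0.0353 in limma, and neither passed over all genes (adjusted p = 0.228 and 0.9995). That of S100a8 was -0.50 and -0.38, and neither passed. Of 15 bile duct markers 8 rose against wild type in Mdr2-KO liver and 9 did so without interleukin 6 as well, with list means of 5.37 to 5.50, 6.10 to 6.29 and 6.09 to 6.42 in the 3 groups. Of 19 hepatocyte markers 1 fell, Fgb, in Mdr2-KO/IL6-KO against wild type, and their list means ran from 12.03 to 12.10, 11.87 to 12.09 and 11.87 to 12.05. The part of neutrophil or duct RNA in the Lcn2 values was not tested.

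Other cell markers in the 2 comparisons with wild type were as follows. Of 20 macrophage markers 2 rose in each, of 14 stellate cell and matrix markers 8 and 9 rose, and of 12 endothelial markers 1 and 3 rose in Mdr2-KO and Mdr2-KO/IL6-KO. Of 14 lymphocyte markers none passed in Mdr2-KO (4 at an unadjusted p under 0.05) and 3 fell in Mdr2-KO/IL6-KO. None of 5 erythroid markers and none of 11 pancreas, fat and muscle markers passed in limma, where 1 erythroid marker had an unadjusted p under 0.05 in each comparison and no marker of the other list did. Between the knockout groups no marker of these lists, nor of the duct and hepatocyte lists, passed. At an unadjusted p under 0.05 there were 3 neutrophil, 2 hepatocyte, 2 lymphocyte, 1 bile duct and 1 macrophage markers.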

How the data were processed

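Log2 levels of 35557 probe sets on 11 arrays were deposited by the authors as 1 table. The submitters' processing notes name RMA and Partek, and the version is not given in the sources used here. No further normalization was applied. Probe sets with 1 symbol in the platform annotation (21789; 1621 had several and 12147 none) were named, with symbols updated by Entrez identifier against RefSeq genes of GRCm38.p6, and the probe set with the highest mean was kept for each of 19938 genes. All 11 arrays were fitted in limma 3.58.1 (R 4.3.3) with a mean per group, eBayes, two-sided, and Benjamini-Hochberg adjustment over all genes; a call is an adjusted p under 0.05. The labels give no batch or pairing, so none was fitted. Wild-type and knockout titles carry different number prefixes of unstated meaning, which cannot be told apart from genotype. The script was tested on simulated data. The number of arrays limits the precision. Of 313 entries in 18 gene lists, 29 could not be measured by a probe set with that symbol alone.

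The 7 genes, the lists and the alternatives were chosen with earlier results of these data known. Named were the 7 genes, the 3 genes nearest to each in pattern, up to 6 called genes of each list (or 3 by lowest p), and receptors and clearance partners; other names were added after their values were seen. Alternatives were the mean of probe sets, a filter on dim genes, 3 other normalizations, 4 other models, only the 2 groups compared, 2 stricter thresholds and leaving out arrays.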

Additional observations from a re-analysis of the deposited data

How the results depend on the processing

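Over the 25 settings Lcn2 passed in 17, Lbp in 12, Orm1 in 4 and Orm2 in 3, all for Mdr2-KO/IL6-KO minus wild type, and no gene of the 7 passed in either other comparison in any setting. All 21 differences of the 7 genes kept their direction in every setting except those given here. After quantile normalization Hpx was 0.0251 for Mdr2-KO minus wild type and 0.0131 for Mdr2-KO/IL6-KO minus wild type, and by cyclic loess the former was 0.0107. With the array median as a covariate Orm2 was 0.0956 and Hpx 0.0115 for Mdr2-KO minus wild type, and Orm3 was 0.17 for Mdr2-KO/IL6-KO minus wild type. With Mdr2-KO replicates 2 and 3 left out together Hpx was 0.0095 for Mdr2-KO minus wild type. When single arrays were left out, Mdr2-KO minus wild type ran from -0.61 to 0.22 for Orm2, -0.30 to 0.57 for Orm3 and -0.0817 to 0.0227 for Hpx, and Lbp between the knockout groups from -0.0942 to 0.0087.

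The number of the 7 genes called in Mdr2-KO/IL6-KO minus wild type was 2. It was 3 without Mdr2-KO replicates 2 and 3 and with only the 2 groups compared, 4 with array weights, 1 after quantile normalization and 0 at an adjusted p under 0.01, with the covariate, with a fold of at least 1.5 as the null and in the unmoderated model; leaving out single arrays gave 0 to 3. In the test of any difference among the groups 0 of 7 passed; it was 1 without Mdr2-KO replicates 2 and 3, after cyclic loess or quantile normalization, 2 among the brighter genes, 4 with array weights, and 0 to 1 without single arrays. Over all genes Mdr2-KO minus wild type had 252 calls, and 94 at 0.01, 410 with array weights, 15 with the fold, 138 with only the 2 groups, 43 unmoderated and 148 to 323 without single arrays. Mdr2-KO/IL6-KO minus wild type had 836, and 342, 1341, 51 and 496 at 0.01, with weights, with the fold and unmoderated, and 464 to 989 without single arrays. Mdr2-KO/IL6-KO minus Mdr2-KO had 1 call; it was 2 with the covariate, trend and robust, median centring or Mdr2-KO replicates 2 and 3 left out, 4 by cyclic loess or among brighter genes, 6 with weights, 0 unmoderated and 1 to 5 without single arrays. The stricter thresholds ask more by construction; for the rest the cause was not tested. No paired analysis was possible because the labels give no replicate numbers and pair no samples. Further probe sets of the 7 genes were not compared, since each has 1.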

Other observations

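Of 14 genes known to decline in the acute phase 3 fell in Mdr2-KO/IL6-KO against wild type and none rose: Serpina6, the cortisol carrier, which fell by 0.91 on the log2 scale (limma adjusted p = 0.0024), Pon1, a lipoprotein esterase, which fell by 0.50 (0.0163), and Fetub, a fetuin, which fell by 0.60 (0.0311). None passed in Mdr2-KO against wild type or between the knockout groups, where 3 and 3 had an unadjusted p under 0.05. The median was -0.15 in the first comparison. The transthyretin gene Ttr and Alb had differences of -0.17 and -0.08 and did not pass.

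Of 20 measured genes of lipocalin-like proteins, a set that includes Orm1, Orm2, Orm3 and Lcn2, 4 fell in Mdr2-KO/IL6-KO against wild type. Besides Lcn2 these were Fabp5 (-2.25, adjusted p = 0.000549) and Fabp1 (-0.56, 0.0181), fatty acid carriers of a related fold, and the major urinary protein gene Mup3 (-1.02, 0.013). Fabp5 was the only one to fall in Mdr2-KO against wild type, with a difference of -1.83, and none passed between the knockout groups, where 3 had an unadjusted p under 0.05. Rbp4, the retinol carrier, and Ambp had differences of 0.06 and -0.33 from wild type in Mdr2-KO/IL6-KO and did not pass.

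Hamp, the iron hormone hepcidin that interleukin 6 induces, had a difference opposite in sign to Orm2 and Lcn2: its mean was 8.70 over wild-type arrays, 10.57 for Mdr2-KO and 11.43 for Mdr2-KO/IL6-KO. Wild-type replicate 2 read 6.10 against 10.30 and 9.69 on the other wild-type arrays, and without it the difference below is 1.44. The difference of 2.73 ± 0.74 SE between Mdr2-KO/IL6-KO and wild type did not pass (adjusted p = 0.0568). Hamp was named after its values were seen. Among the 7 genes no array of the groups of 4 stood apart from the other 3 of its group by Dixon's test in any of 14 group and gene combinations. This test looks for 1 array alone, so it cannot flag 2 arrays that lie apart together, as Mdr2-KO replicates 3 and 4 did. The wild-type arrays were not put to it.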
